A study of Homo sapiens with 10 samples.

Results

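The HOX cluster genes encode homeodomain transcription factors, and they were examined here in MDAMB231 cells through the histone marks and open chromatin at their start sites. Members were chosen by name, as protein-coding genes of the GENCODE v44lift37 annotation called HOXA, HOXB, HOXC or HOXD followed by a number from 1 to 13. The 38 members described here were 38 of 20098 protein-coding genes on chromosomes 1 to 22 and X, with 10 members in HOXA, 10 in HOXB, 9 in HOXC and 9 in HOXD. MDAMB231 is an established human triple-negative breast cancer line with a basal, mesenchymal-like character, grown in DMEM with 5% FBS and given no treatment. H3K4me3, H3K27Ac and H3K4me1 were mapped by ChIP-seq, which sequences the DNA recovered with an antibody to each modification, and nucleosome-depleted DNA was mapped by FAIRE-seq in cells fixed with 1% formaldehyde. Each assay had 2 samples, with 1 input for ChIP and 1 for FAIRE. The authors combined both samples of an assay into 1 list of peaks, so the peaks used here carry no error between replicates, and samples were not compared.

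In development, HOX genes are switched on in the order in which they lie along their cluster, with low-numbered genes acting toward the head and high-numbered genes toward the tail and limb ends. Polycomb proteins keep the clusters silent where they are not needed, and Trithorax proteins, which include H3K4 methyltransferases, maintain the active state. H3K4me3 marks promoters, H3K27Ac marks active promoters and enhancers, and H3K4me1 marks enhancers, whether poised or active. No mark of repression was analysed here, so a start site without a peak is described only as bare, and a part of a cluster as bare where it holds no histone peak.

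The deposited lists held 18019 H3K4me3 peaks, 37495 H3K27Ac peaks, 26771 H3K4me1 peaks and 46552 FAIRE peaks on hg19. The score of a histone peak is minus 10 times the log10 of its MACS p-value, and the height of a FAIRE peak is the signal at its top. Scores gathered at 3100, which 56.8% of H3K4me3 peaks reached or passed, so peaks at that value could not be ranked. Markers of the cell line were examined first. All 8 genes known to mark this line (AXL, CAV1, CD44, EGFR, MSN, PLAUR, VIM and ZEB1) carried H3K4me3, H3K27Ac and FAIRE peaks within 1 kb of a start site. The markers of blood, endothelium and liver reported here (PTPRC, CD3E, CDH5 and ALB) had no peak of any list there, while ACTB, GAPDH and EEF1A1, which every cell uses, had H3K4me3, H3K27Ac and FAIRE peaks. Luminal genes were mixed. GATA3 and SPDEF had H3K4me3 with H3K27Ac, ESR1 and FOXA1 had H3K4me3 without H3K27Ac, CDH1 had H3K27Ac without H3K4me3, and ELF3 had no peak. Of the basal genes, TP63 carried all 3 histone marks and KRT5 and KRT14 were bare.

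Most HOX promoters in MDAMB231 were bare. A promoter was any annotated start site of the gene widened by 1 kb on each side, and 1 shared base with a peak was enough to count. By this measure 11 of 38 HOX genes (28.9%) had an H3K4me3 peak, against 67.3% of all coding genes. H3K27Ac was also found at 11 HOX genes (28.9%), against 63.5%. FAIRE peaks lay at 3 HOX genes (7.89%), against 39.3%, and H3K4me1 peaks at 0, against 20.0%. Both H3K4me3 and H3K27Ac were present at 10 HOX genes (26.3%), against 61.3% of coding genes. No peak of any list was found at 26 HOX genes (68.4%), against 29.3%. In the bar plot, the shares of marked promoters were lower among HOX genes than over all coding genes for every assay. HOX genes had a median of 2 annotated start sites and all coding genes a median of 5, so a HOX gene had fewer chances to meet a peak. With 1 canonical start site per gene, H3K4me3 was counted at 7 HOX genes, against 64.4% of coding genes, H3K27Ac at 6, both marks at 6 and FAIRE at 1.

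**Figure D1:**
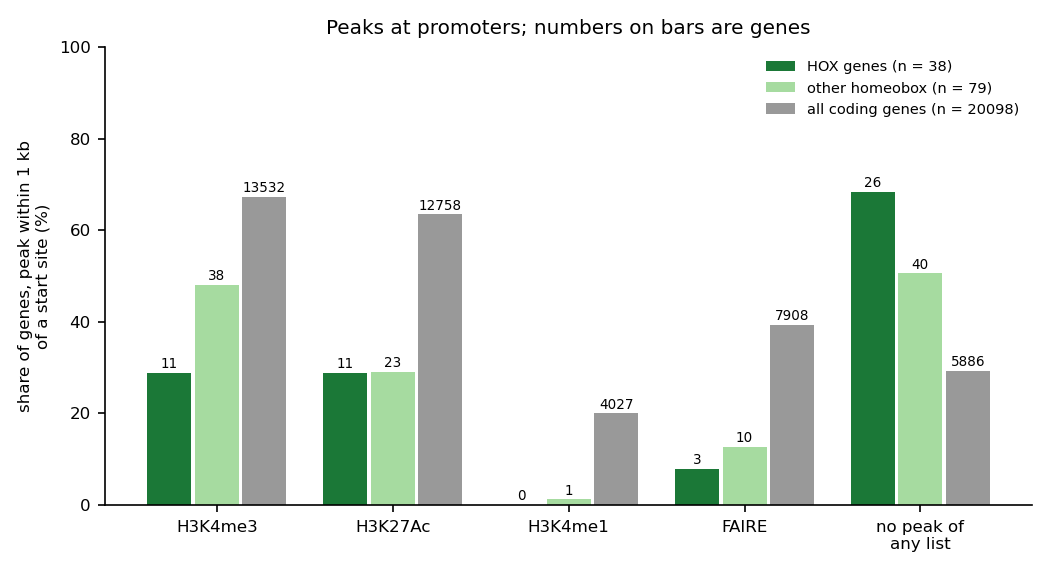
Share of genes with a peak of each list within 1 kb of a start site (y axis, percent), for the 38 HOX genes, 79 other homeobox genes and 20098 protein-coding genes; the number on each bar counts genes. The H3K4me3 bar of HOX genes stands at 28.9% and that of all coding genes at 67.3%, and the order is reversed for genes with no peak of any list.

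Homeobox genes outside the clusters, which include other regulators of body pattern, lay between the HOX genes and the whole genome for H3K4me3. Of 79 such genes, 38 (48.1%) had an H3K4me3 peak; in alphabetical order these began with BARX2, DLX2, DLX3, DLX4, EMX1, EN2, GBX1, GSX2, HHEX and HLX. Only 23 of the 79 (29.1%) also had H3K27Ac, a share like that of HOX genes, and NKX2-1 was the 1 gene with H3K4me1. FAIRE peaks were found at 10 of them (12.7%). H3K4me3 without H3K27Ac within 1 kb was thus found at 15 of these genes (19.0%), against 6.05% of coding genes. Among HOX genes it was found at HOXD12 alone (2.63%), where it depended on the window: HOXD12 had both marks within 2 kb and neither within 500 bp.

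HOX promoters without H3K4me3 were rich in CpG. The CpG ratio is the number of CG dinucleotides over the number that the C and G content alone would give, taken here over 500 bp on each side of the canonical start. Over all coding genes its median was 0.789 for promoters with H3K4me3 and 0.292 for those without. Over HOX genes it was 0.803 for the 7 with H3K4me3 at the canonical start and 0.775 for the 31 without. HOX promoters without the mark thus had a median ratio close to that of marked promoters over all coding genes. A ratio of at least 0.6 was reached by 32 of 38 HOX promoters (84.2%), against 65.9% of coding promoters. H3K4me3 was present at 6 of these 32 (18.8%), against 87.1% of the 13248 coding promoters past the same ratio and 31 of 69 other homeobox promoters (44.9%). In the plot of CpG ratios, marked and unmarked HOX genes overlapped over most of the range. HOXA9, a regulator of blood progenitors, had the highest ratio, 1.02, and no peak; HOXB6, which was marked, had one of the lowest, 0.376.

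The 250 bases just upstream of 2 canonical start sites of HOXD are shown, with each CG in capitals, as a pair in which the marked promoter has fewer CG than the bare one. Over the whole set the medians ran the other way, with 15 CG at HOX starts with H3K4me3 and 13 at those without. HOXD4, a gene of the hindbrain and neck vertebrae, had only 4 CG (chr2:177016028-177016277, plus strand, in an intron of HOXD3) and was marked. HOXD13, a regulator of digit formation, had 21 CG (chr2:176957199-176957448, plus strand, in no annotated gene) and was bare. Both are from GRCh37 and run 5′ to 3′ on the strand of the gene; the median was 18 CG over all coding genes in windows of this length.
HOXD4: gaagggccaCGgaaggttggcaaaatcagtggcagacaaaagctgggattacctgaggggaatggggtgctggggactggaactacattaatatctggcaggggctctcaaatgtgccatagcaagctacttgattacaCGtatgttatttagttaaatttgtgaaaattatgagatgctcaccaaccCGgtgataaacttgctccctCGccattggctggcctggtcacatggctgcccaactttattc
HOXD13: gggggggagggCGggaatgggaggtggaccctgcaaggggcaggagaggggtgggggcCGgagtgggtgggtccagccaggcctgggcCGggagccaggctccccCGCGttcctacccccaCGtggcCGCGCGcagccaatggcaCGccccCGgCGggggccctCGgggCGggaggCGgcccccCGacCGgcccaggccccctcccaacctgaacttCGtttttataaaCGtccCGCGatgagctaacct

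**Figure D2:**
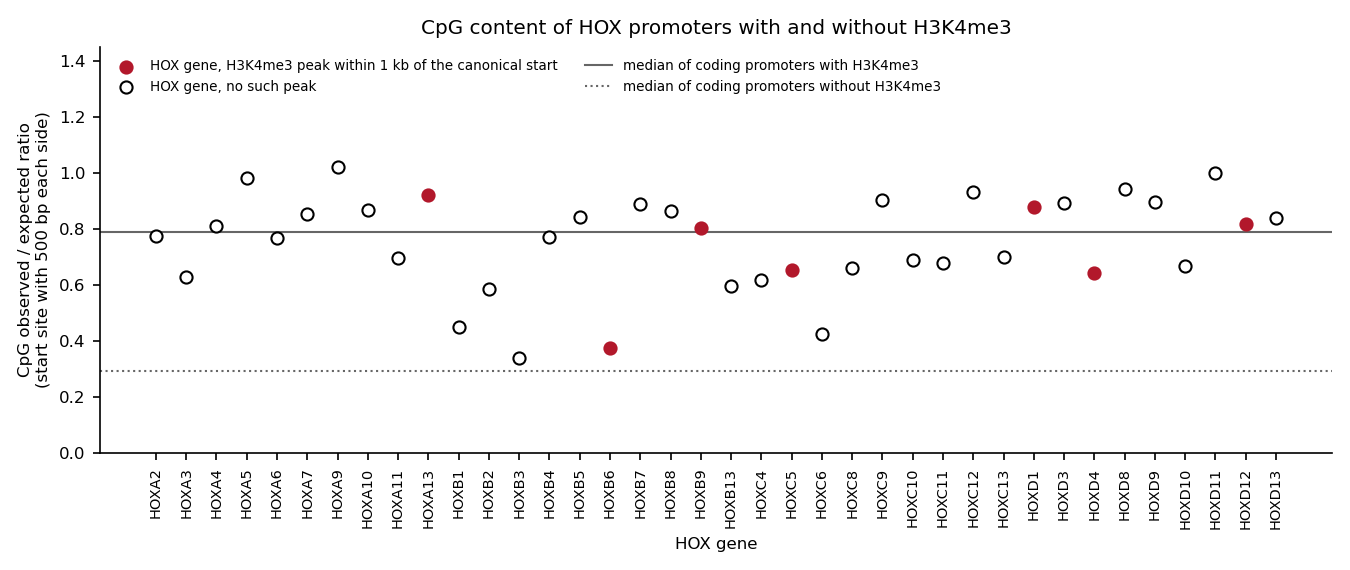
CpG observed over expected ratio (y axis) of each HOX promoter, taken over 500 bp on each side of the canonical start; filled points have an H3K4me3 peak within 1 kb of that start and open points do not. Most open points lie nearer to the solid line, the median of all coding promoters with H3K4me3 (0.789), than to the dotted line, the median of those without (0.292).

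Several members with bare starts had H3K4me3 nearby. The median distance from a HOX gene's closest start site to an H3K4me3 peak was 4466.5 bp, against 0 bp over all coding genes. The closest start lay inside a peak for 10 members. For 15 members (39.5%) it lay 1 to 10 kb from a peak, a range that held 5.05% of all coding genes, and for 12 members (31.6%) it lay farther than 10 kb, against 27.6%. Fewer HOX genes than coding genes had a start inside a peak, more lay 1 to 10 kb away, and the shares farther out were closer to each other. Members lie close together and several had the same nearest peak, so these distances are not separate observations. HOXD12 was the member just inside the 1 kb limit, with an H3K4me3 peak 964 bp upstream of its start. HOXC8 was the next outside it, at 1657 bp. In the plot of distances, the H3K4me3 and H3K27Ac points of most members lie close together. HOXA2, HOXA3, HOXA4, HOXB1, HOXB2 and HOXB13 were closer to H3K27Ac than to H3K4me3 by a wide margin. HOXC10, HOXC11, HOXC12 and HOXC13 were closer to H3K4me3. All of these HOXC genes had the same nearest H3K4me3 peak, of low score (94.6). Strict peaks (MACS p at or under 1e-10) leave that peak out. The member farthest from H3K4me3 was HOXA2, a hindbrain regulator, at 57304 bp. The median distance to an H3K4me1 peak was 79154.5 bp, against 31348.5 bp over all coding genes, and the median distance to a FAIRE peak was 8914 bp, against 4820.5 bp. Other homeobox genes had medians near the HOX values for H3K4me3 (4588 bp) and H3K4me1 (72304 bp). For H3K4me3 the distances behind these close medians were spread differently. The closest start lay inside a peak for 48.1% of other homeobox genes, against 26.3% of HOX genes. It lay 1 to 10 kb away for 11.4%, against 39.5%, and farther than 10 kb for 40.5%, against 31.6%. The median distance of other homeobox genes to a FAIRE peak was longer than that of HOX genes, 27138 bp.

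**Figure D3:**
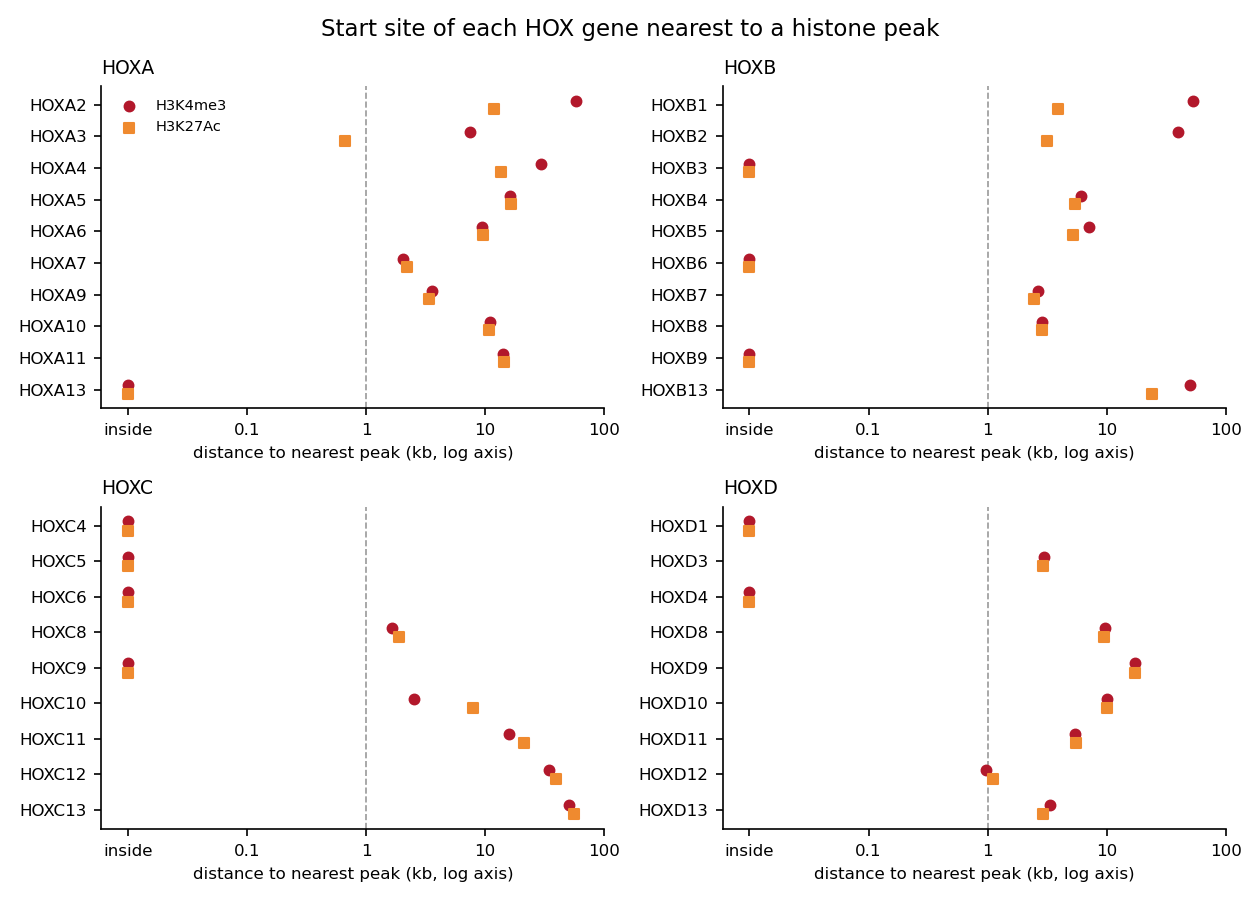
Distance from the closest start site of each HOX gene to the nearest H3K4me3 peak (circles) and H3K27Ac peak (squares), in kb on a log axis; genes with a start inside a peak are drawn at the left end, and the dashed line marks 1 kb. Members of HOXC from HOXC10 to HOXC13 lie farther from H3K4me3 with each step, from 2524 bp to 50123 bp.

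Marked genes were found among anterior, central and posterior members. H3K4me3 was found at 4 of 11 anterior members (groups 1 to 4), 3 of 11 central members (groups 5 to 8) and 4 of 16 posterior members (groups 9 to 13). H3K27Ac was found at 5, 3 and 3 of them. With 1 canonical start per gene, H3K4me3 was left at fewer members of each part. These were HOXD1 and HOXD4 (anterior), HOXB6 and HOXC5 (central), and HOXA13, HOXB9 and HOXD12 (posterior). H3K27Ac was then found at the same members except HOXD12. Of the paralogue groups, 2, 7, 8, 10 and 11 had no member with H3K4me3, and no group had it in all members. In group 9, HOXB9 and HOXC9 were marked while HOXA9 and HOXD9 were bare. In group 13, HOXA13 was marked while HOXB13, HOXC13 and HOXD13 were bare. By cluster, the count was 1 of 10 in HOXA, 3 of 10 in HOXB, 4 of 9 in HOXC and 3 of 9 in HOXD.

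The marks of the 12 members with any peak came in 4 combinations. H3K4me3 with H3K27Ac and no FAIRE peak was found at 7 members (HOXB3, HOXB6, HOXB9, HOXC4, HOXC5, HOXC9 and HOXD1). Both marks and a FAIRE peak were counted at 3 members (HOXA13, HOXC6 and HOXD4), but peaks of all 3 lists coincided only at HOXD4. The FAIRE peak of HOXA13 overlapped neither mark, and that of HOXC6 overlapped H3K4me3 without H3K27Ac, each near an alternative start. HOXA3 had H3K27Ac alone. HOXD12 had H3K4me3 alone within 1 kb, although its H3K4me3 peak overlapped an H3K27Ac peak that lay just outside this limit, at 1114 bp. Several members shared a peak. HOXB3 and HOXB6 met the same peak, as did HOXC4 and HOXC6 at another and HOXC6 and HOXC9 at a further one, so these genes are not separate observations. For HOXB3, HOXC4, HOXC6 and HOXC9 the marked start was an alternative one, and the canonical start had no H3K4me3 peak within 1 kb.

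Along the clusters, the marks formed short islands. When histone peaks less than 5 kb apart were joined, the 4 clusters held 19 marked blocks with a median length of 2998 bp and a range from 1233 bp to 9751 bp. They were separated or bounded by 20 bare parts of at least 5 kb, which summed to 448180 bp of the 515350 bp in the clusters. H3K4me3 covered 8.02% of the clusters, against 1.57% of the genome, and H3K27Ac covered 8.82%, against 3.95%. H3K4me1 covered 1.64%, against 3.30%, and FAIRE peaks 1.46%, against 1.47%. Strict peaks (MACS p at or under 1e-10, FAIRE height at or above the median of the list) gave lower values. H3K4me1 then covered 0.998% of the clusters and FAIRE peaks 0.469%, with genome shares not recomputed. With clusters widened by 50 kb, H3K4me3 covered 4.83% and H3K27Ac 7.08%, still above the genome shares over the 4 clusters together, although H3K27Ac in HOXA alone fell to 3.07%, below the genome share, and in HOXB rose to 12.1%. H3K4me1 then covered 4.10%, also above its genome share, so its direction depends on where the clusters are taken to end. The map of the clusters shows these islands between long stretches without a histone peak, 5 of which overlapped a FAIRE peak. H3K4me3 and H3K27Ac thus covered a larger share of the clusters than of the genome, while few member start sites were reached. The clusters held 38 members in 515350 bp, and the genome held 20098 coding genes in 3036303846 bp. Coverage was not adjusted for this difference in gene density.

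**Figure D4:**
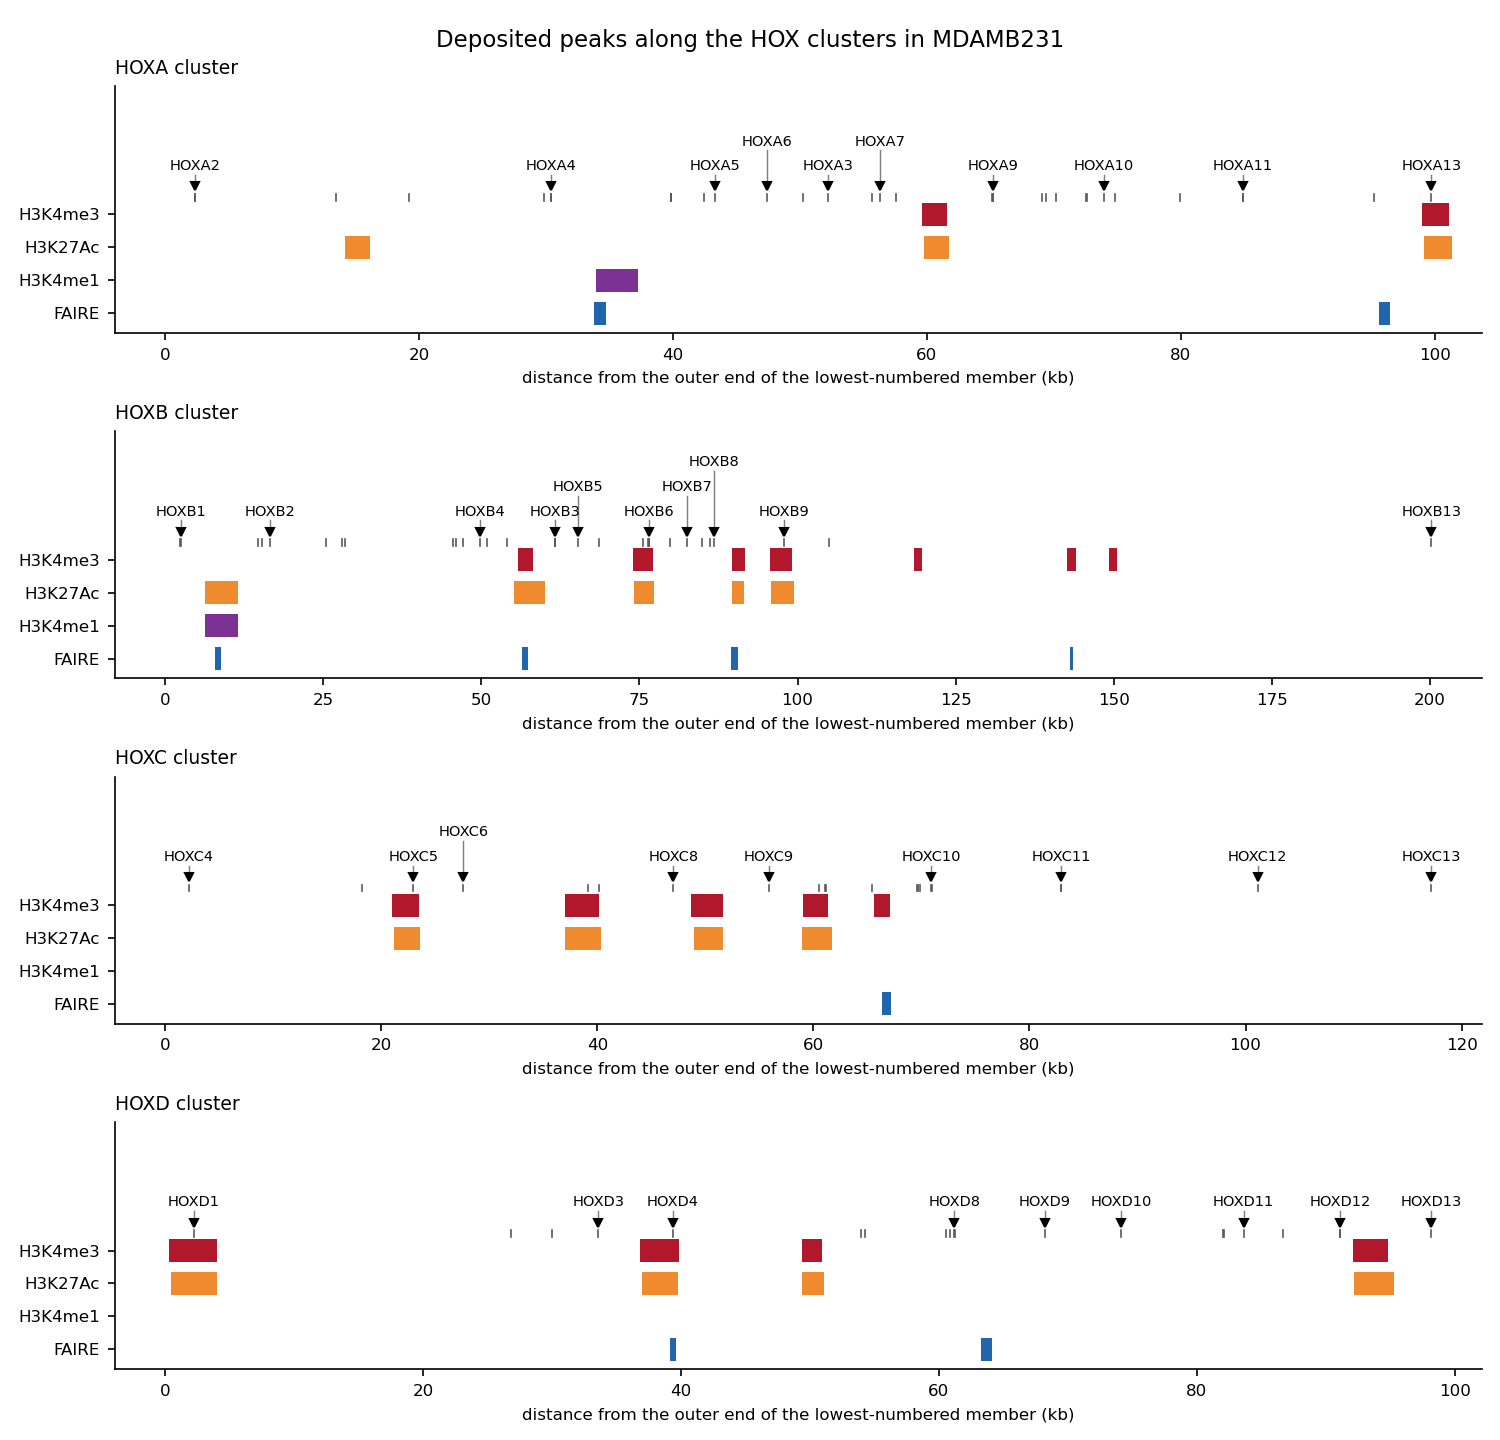
Peaks of the 4 lists along each HOX cluster (x axis, distance in kb from the outer end of the lowest-numbered member); triangles mark canonical start sites and ticks all annotated start sites of members. The long gaps at HOXC10 to HOXC13 and HOXD8 to HOXD12 hold no histone peak over 50.1 kb and 41.0 kb.

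The clusters held 18 H3K4me3 peaks, of which 14 (77.8%) overlapped an H3K27Ac peak, against 81.1% of the whole list. FAIRE peaks overlapped 5 of them (27.8%), against 45.2%, and H3K4me1 peaks overlapped 0, against 22.3%. A start site of any gene lay inside 9 of the 18 (50%), against 77.3%, and a start site of a coding gene inside 8 (44.4%), against 69.9%. Acetylation of HOX islands was thus about as frequent as in the whole list, and their overlap with FAIRE peaks and start sites was less frequent. Low FAIRE overlap was shared with other homeobox promoters, where 20.9% of 43 H3K4me3 peaks overlapped FAIRE and 58.1% overlapped H3K27Ac. The 14 acetylated islands had a median H3K27Ac score of 609, against 1138 for all 14619 acetylated H3K4me3 peaks. Over all H3K27Ac peaks the median was 591, and over those at other homeobox promoters 614, both near the HOX value. The median H3K4me3 score was 1490 in the clusters and 3100 in the whole list, and median widths were 2360 bp and 2524 bp. The 10 islands within 1 kb of a member start had a median H3K4me3 score of 2448, and the 8 farther away 909. Where these islands were acetylated, the median H3K27Ac score was 1064 for the 9 near a member start and 332 for the 5 farther away. These scores overlapped widely, from 71.6 to 1596 near a start and from 51 to 1055 farther away. In the plot of both scores, 4 of the 14 acetylated islands lie above 1138, those of HOXB9, HOXC6 with HOXC9, HOXD4 and HOXD12. In base composition the islands were close to the list, with a median CpG ratio of 0.550 against 0.592.

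**Figure D5:**
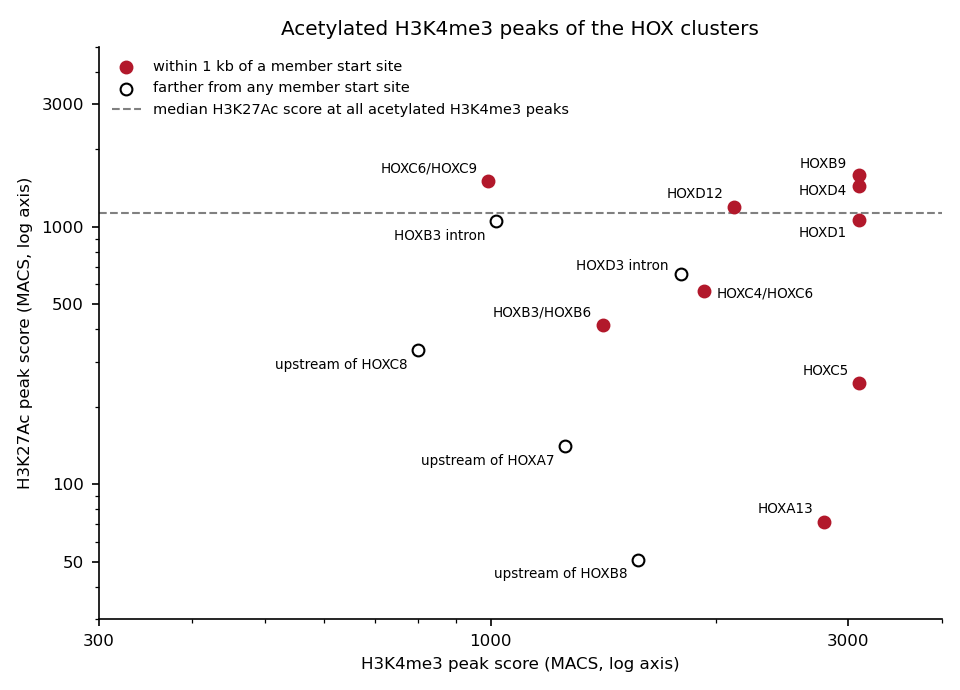
H3K4me3 score (x axis) and H3K27Ac score (y axis) of the 14 H3K4me3 peaks in HOX clusters that overlap H3K27Ac, both as MACS scores on log axes; filled points lie within 1 kb of a member start site. HOXA13 and HOXC5 combine H3K4me3 scores of 2786 and 3100 with H3K27Ac scores of 71.6 and 248, below the median of 1138 drawn as a dashed line.

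HOXC had the largest share of marked members when alternative starts were counted, and its posterior end was bare. With 1 canonical start per gene, H3K4me3 was found at 1 member of HOXC (HOXC5), 1 of HOXA, 2 of HOXB and 3 of HOXD. The 50123 bp from chr12:54332615-54382737 held no histone peak and the canonical starts of HOXC13, a regulator of hair and nail formation, HOXC12, HOXC11 and HOXC10. The border of this bare part was an H3K4me3 peak of low score, 94.6, over an exon of HOXC10 (chr12:54382738-54384181), together with the single FAIRE peak of HOXC, 67.9 in height (chr12:54382595-54383494), 914 bp from an alternative start of HOXC6. The block that began there reached chr12:54390844 and held the alternative starts of HOXC9 and HOXC6 in an H3K4me3 peak with a score of 993 and an H3K27Ac score of 1512. HOXC9 and HOXC6 act in thoracic patterning. The next island (chr12:54398189-54401112, score 801, H3K27Ac 332) lay in an intron of HOXC6 and ended 1657 bp upstream of HOXC8, whose start was bare. Another block held alternative starts of HOXC6 and HOXC4 in an H3K4me3 peak (chr12:54409623-54412768, 3146 bp wide, score 1925, H3K27Ac 562). The last H3K4me3 peak (chr12:54426320-54428840) held the HOXC5 start with a score of 3100 and an H3K27Ac score of 248. The remaining 20974 bp to the cluster's end were bare and held the canonical start of HOXC4. No peak of any list lay in the 50 kb on either side of HOXC.

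HOXD was marked near both ends and in its middle, with long bare parts between. The H3K4me3 peak nearest to the posterior end (chr2:176960805-176963559, 2755 bp wide, score 2109, H3K27Ac 1199) lay in no gene, between HOXD13 and HOXD12, 2 genes of digit and limb patterning. It ended 964 bp before the HOXD12 start, and its H3K27Ac partner ended 1114 bp before it. The bare part that followed (chr2:176963560-177004577, 41018 bp) held the canonical starts of HOXD12, HOXD11, HOXD10, HOXD9 and HOXD8 and 1 FAIRE peak of height 41.8, 2064 bp from the closest start of HOXD8. An island in an intron of HOXD3 followed (chr2:177004666-177006234, score 1792, H3K27Ac 656), and no start site lay inside it. The HOXD4 start was covered by H3K4me3 (chr2:177015802-177018799, score 3100), H3K27Ac (score 1440) and a FAIRE peak (chr2:177015992-177016503, height 35.7), which made it the 1 member whose start lay inside peaks of 3 lists. After 32829 bare bp with the canonical start of HOXD3, the cluster ended at HOXD1. Its peak was the widest at any HOX promoter, 3745 bp (chr2:177051632-177055376, score 3100, H3K27Ac 1064). The flanks of HOXD were as empty as those of HOXC.

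HOXB was the longest cluster, 200225 bp, because HOXB13, a prostate regulator, lies apart from the rest. At its anterior end HOXB1 and HOXB2, both hindbrain genes, had bare starts, and the interval between them carried marks known from enhancers. An H3K27Ac peak with a score of 3100 (chr17:46612247-46617366) coincided there with an H3K4me1 peak (score 137) and a FAIRE peak (height 58.2), with no H3K4me3. It was the H3K27Ac peak of highest score inside any HOX cluster. The next 43701 bp (chr17:46617367-46661067) held the canonical starts of HOXB2 and HOXB4 and no histone peak. An island in an intron of HOXB3 (chr17:46661736-46664125, score 1017) had an H3K27Ac score of 1055 and a FAIRE peak of height 57.3, but no start site. After a bare part of 13919 bp (chr17:46665951-46679869) with HOXB5 and the canonical start of HOXB3, the HOXB6 start and an upstream start of HOXB3 shared a peak (chr17:46679870-46683060, score 1410, H3K27Ac 416). The canonical starts of HOXB7 and HOXB8 lay in the 12249 bare bp that followed (chr17:46683260-46695508). The longest block in any cluster, 9751 bp, began 2855 bp upstream of HOXB8 and ended past HOXB9. Its first island (chr17:46695533-46697560, score 1571) had an H3K27Ac score of 51.0, near the authors' threshold, and the tallest FAIRE peak inside a HOX cluster (chr17:46695378-46696452, height 68.4). Its second island held the start of HOXB9, which helps pattern the thoracic region (chr17:46701477-46704999, 3523 bp wide, score 3100) with an H3K27Ac score of 1596, the highest at any member. Between HOXB9 and HOXB13, 3 H3K4me3 peaks without H3K27Ac (scores 773, 126 and 129) lay more than 10 kb from any member start site, along the non-coding gene LINC02086. The final 49646 bp (chr17:46756467-46806112) up to the HOXB13 start were bare.

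HOXA had the lowest coverage by H3K4me3, 2.64%, and by H3K27Ac, 4.53%. Its H3K4me1 coverage of 3.31% came from a single peak. The 14156 bp at the HOXA2 end were bare up to chr7:27154128. HOXA3 had H3K27Ac alone (chr7:27154129-27156105, score 135), 665 bp upstream of an alternative start and over a start of the antisense gene HOXA-AS2. HOXA4 lay in the next bare part of 17785 bp (chr7:27156106-27173890). Upstream of it, an H3K4me1 peak of low score, 58.0, overlapped a FAIRE peak of height 59.2 (chr7:27173723-27174659) without H3K27Ac or H3K4me3. The canonical starts of HOXA5, HOXA6, HOXA3 and HOXA7 shared a bare part of 22420 bp (chr7:27177189-27199608). It ended at an island between HOXA7 and HOXA9 (chr7:27199609-27201528, score 1255, H3K27Ac 141), 2054 bp upstream of the closest HOXA7 start and in no annotated gene. HOXA9, HOXA10 and HOXA11, which act in limb, uterus and blood cells, had their canonical starts in the longest bare part of the cluster, 37296 bp (chr7:27201697-27238992). At the far end HOXA13, a regulator of digit and genital formation, was marked by an H3K4me3 peak with a score of 2786 (chr7:27238993-27241116). Its H3K27Ac score was 71.6, the lowest at any member, and its FAIRE peak (chr7:27235606-27236422, height 39.2) lay in an exon, 387 bp from the alternative start. In the 50 kb beyond HOXA13 there was a single H3K4me3 peak (chr7:27274555-27276054, score 261).

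Beside HOXB, the marks changed kind. Within 50 kb beyond HOXB1, where no other coding gene starts, a block of 33777 bp (chr17:46555816-46589592) held H3K27Ac and H3K4me1 but no H3K4me3. This block reached the outer limit of the 50 kb, and peaks beyond that limit were not joined, so it may be longer. Its longest H3K27Ac peak was 10364 bp wide with a score of 3100, and the H3K4me1 peak over it was 13147 bp wide with a score of 162. The FAIRE peaks of this block reached a height of 149.6 (chr17:46560292-46561177), above the 68.4 of the tallest one inside a cluster. H3K4me1 covered 29.0% of the HOXB flanks and 2.57% of the cluster. The enhancer mark thus lay mainly outside the gene cluster, 18781 bp or more from the canonical HOXB1 start. The coding neighbours EVX1 and EVX2, homeobox genes beside HOXA and HOXD, and PRAC1 and PRAC2, within HOXB, had no peak at a promoter.

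The FAIRE peaks inside the clusters were searched for letters known from transcription factors. Of the 9 FAIRE peaks, 2 (22.2%) held the AP-1 letters TGANTCA on either strand, against 59.2% of all FAIRE peaks and 55.0% of those of the same length range, 443 to 1075 bp. Letters bound by PBX with HOX proteins, TGATNNAT, were present in 3 (33.3%), against 40.5% and 34.3%, so near the share at the same length; the AP-1 and PBX-HOX patterns can match overlapping letters. A CTCF core, AGGGGGC, was present in 0 of 9, against 13% and 12.4%. Both FAIRE peaks with AP-1 letters were the ones that overlapped H3K4me1, between HOXB1 and HOXB2 and upstream of HOXA4. A match of letters is a description and not evidence of binding. CTCF separates active from silent parts of HOX clusters in other cells, so its core was also sought within 500 bp of each border of a marked block. It was present at 11 of 38 borders (28.9%), against 14.9% of 35988 edges of H3K4me3 peaks. These sets are unlike and were not matched. The borders belong to joined blocks, some without H3K4me3, and the edges to single H3K4me3 peaks. The AP-1 match upstream of HOXA4 is shown in capitals with its surroundings (chr7:27174123-27174249, GRCh37, plus strand, in an intron of HOXA3), since it lies in the only stretch of HOXA with H3K4me1.
HOXA4 upstream FAIRE peak: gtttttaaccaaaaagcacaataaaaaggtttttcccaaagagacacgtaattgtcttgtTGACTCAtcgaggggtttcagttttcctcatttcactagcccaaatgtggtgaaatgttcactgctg

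Of 24 names of non-coding genes of the clusters, 23 were found. H3K4me3 lay within 1 kb of a start site of 6 (26.1%), against 23% of 21621 lncRNA and miRNA genes, and 15 (65.2%) had no peak of any list, against 67.9%. Both shares were near those over all such genes. HAGLR and HOXD1 started inside the same peak, as did HOTTIP and HOXA13, and the lists carry no strand, so a peak between divergent starts cannot be assigned to either gene. HOXC-AS2 started inside the HOXC9 peak, and HOXB-AS3 had a start 17 bp from the peak of HOXB6. HOXA-AS2 and HOXB-AS4 had H3K27Ac without H3K4me3 within 1 kb. For HOXB-AS4 this depended on the window, since H3K4me3 lay 1038 bp away and H3K27Ac 778 bp. The nearest H3K4me3 peak to HOXA-AS2 was 36822 bp away. HOTAIR, a non-coding RNA known for its part in breast cancer metastasis, lay in the bare posterior part of HOXC, 13998 bp from the nearest H3K4me3 peak.

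The miRNA genes of the clusters, some of which target HOX transcripts, were partly marked and partly bare. MIR615 (chr12:54427734-54427829, in an intron of HOXC5) lay inside the HOXC5 H3K4me3 peak, and MIR10B lay 771 bp from the HOXD4 peak. MIR196A2, MIR196A1 and MIR196B were bare at their annotated starts, which lay 1341 bp, 4922 bp and 7655 bp from H3K4me3. The annotation gives miRNA genes only as short intervals, like that of MIR615. Where their transcription begins was not examined, so marked and bare refer to these annotated starts alone. Some mature sequences of these genes are shown, from RefSeq on GRCh38.p14, with the seed, bases 2 to 8, in capitals. The seed was the same in miR-196a-5p and miR-196b-5p. That of miR-615-3p, a 3p and not a 5p miRNA, was different. Seeds are a property of the mature sequences and were not compared with the marks, and MIR10B is not shown.
miR-196a-5p: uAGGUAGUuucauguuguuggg
miR-196b-5p: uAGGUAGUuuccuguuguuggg
miR-615-3p: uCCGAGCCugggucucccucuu

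The proteins that act with or on the HOX genes had marked promoters. The 8 genes of the TALE family examined, whose products bind DNA together with HOX proteins (PBX2, PBX3, PBX4, MEIS1, MEIS2, MEIS3, PKNOX1 and PKNOX2), had H3K4me3, against 67.3% of coding genes. Of these, 6 (75%, against 63.5% of coding genes) also had H3K27Ac, the exceptions being MEIS3 and PKNOX2, and FAIRE peaks were found at 5 (62.5%, against 39.3%). All 28 Polycomb and Trithorax genes examined, EZH2, BMI1 and KMT2A among them, had both H3K4me3 and H3K27Ac, against 61.3%, with FAIRE peaks at 10 (35.7%, against 39.3% of coding genes) and H3K4me1 at 6 (21.4%, against 20.0%), both near the share over all coding genes. H3K4me3 was therefore present within 1 kb of at least 1 start of each of these cofactors and regulators, while 26 of the 38 HOX genes had no peak at any start. The cofactors had a median of 12.5 start sites and the regulators 8.5, against 2 for HOX genes and 5 over all coding genes.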

How the data were processed

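ChIP-seq for H3K4me3, H3K27Ac and H3K4me1 and FAIRE-seq were performed in MDAMB231 cells, with 2 samples per assay and an input for each method, 10 samples in all. The authors aligned reads to hg19 (GRCh37) with BWA 0.6.1, removed duplicates, kept reads past a mapping quality filter of 30, combined both samples, and used MACS at default settings (histone marks) and FindPeaks 4.0 (FAIRE), each against input; the submitters' processing notes also name TopHat and HOMER. The deposited score is the MACS p-value on a minus log10 scale, multiplied by 10, with a p threshold of 1e-05. The deposited signal of a FAIRE peak is its height. Neither is normalized between lists, and the lists give no read depth. MACS scores stop near 3100, and combined samples leave no replicate error.

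Starts of the lists were converted to 1-based positions. Start sites came from GENCODE v44lift37, where 38 members were matched by name; 1 gene that fits the rule is not reported here. Peaks were counted at start sites widened by 1 kb (at least 1 shared base), clusters ran from the first to the last base of their members with flanks of 50 kb, and histone peaks were joined over gaps of up to 5 kb. Every member is accounted for; values, with coordinates for most, are given for borders, for the widest H3K4me3 and tallest FAIRE peaks and for members with 1 or 2 histone marks, and from other lists genes that differ from the majority are named, up to 10 in alphabetical order. The sequences printed and the CpG ratio of 0.6 were chosen after values were seen. Members and lists were chosen with earlier results of these data known. No test was run; counts stand beside the same counts over all coding genes. Alternatives were other windows, 1 start site per gene, strict peaks (MACS p at or under 1e-10, FAIRE height at or above the median of the list), a start inside a peak, wider clusters and other gaps. Python 3.11.15, numpy 2.4.6, pandas 2.3.3 and matplotlib 3.10.9 were used; overlap counting was checked against bedtools 2.31.1.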

Additional observations from a re-analysis of the deposited data

How the results depend on the processing

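No paired analysis was possible because a single list of peaks was used for each assay, so no sample could be left out either. Of the 30 recounts of HOX genes, 24 stayed within 1.5 times the count reported. With 1 start site per gene, H3K4me3 was counted at 7 HOX genes (64.4% of coding genes), H3K27Ac at 6 (59.5%), both at 6 (58.1%) and FAIRE at 1 (31.4%); fewer start sites were counted for each gene. FAIRE was also counted at 1 HOX gene with peaks of at least the median height, HOXC6 (24.4% of coding genes), and at 1 with the start itself inside a peak, HOXD4 (33.0%). HOX genes with no peak numbered from 25 to 31, against 27.8% to 33.5% of coding genes. H3K4me1 was counted at 0 HOX genes in all 5 alternatives, against 11.2% to 22.3% of coding genes. The counts of both marks, of genes with no peak and of CpG-rich promoters under these alternatives were added after seeing the data. With a CpG ratio of at least 0.5, H3K4me3 was at 6 of 34 HOX promoters, against 85.0% of coding promoters. At a ratio of at least 0.75 it was at 4 of 22, against 89.1%. With clusters widened by 50 kb, coverage was 4.83% for H3K4me3, 7.08% for H3K27Ac, 4.10% for H3K4me1 (above the 3.30% of the genome) and 1.62% for FAIRE; with strict peaks it was 7.74%, 8.33%, 0.998% and 0.469% (genome shares were not recomputed), since weaker peaks were left out, among them the H3K4me1 peak of HOXA and the H3K27Ac peak at HOXA13. In single clusters, strict peaks left HOXA with 0% H3K4me1 and FAIRE coverage and HOXD with 0% FAIRE coverage, and widening gave H3K4me1 1.65% in HOXA and 11.4% in HOXB. The 19 marked blocks became 21 with gaps of 2 kb, 15 with gaps of 10 kb and 18 with strict peaks; HOXC alone went from 4 to 2 with gaps of 10 kb. The median width of the widest H3K4me3 peak at marked promoters was 3146 bp, or 2998 bp with 1 start site per gene. The lists hold no signal below the authors' threshold, so a bare start site may carry a weaker mark.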
